A study of Mus musculus with 10 samples.

Results

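The genes of glucose uptake, glycolysis and pyruvate fate were examined in the tumor-draining lymph node (TDLN) of mice treated by microwave ablation (MWA), with or without 2-deoxy-D-glucose (2DG). The 40 genes were taken by name from a list of transporters, enzymes and regulators that sets no limit on any measured value, though it was drawn up with earlier results of these data known, and all 40 had a row among 33585 genes. Bulk poly(A) RNA-seq was performed on the TDLN of 10 female BALB/c mice, 6 weeks old, which carried tumors of 4T1 cells, a mouse mammary carcinoma line, in the mammary fat pad. All tumors were ablated on day 10. The MWA group (n = 5) then received the vehicle PBS and the MWA+2DG group (n = 5) received 2DG intraperitoneally at 500 mg/kg every 2 days, and nodes were taken on day 15. Both groups were ablated and neither was free of tumor inoculation, so the comparison was of 2DG against vehicle after ablation. The node was sequenced whole, so fewer cells of a type and less RNA per cell cannot be told apart. Markers of B cells (1499 to 1817 FPKM summed over 9 genes) and T cells (483 to 710 FPKM over 10 genes) were abundant in every library, and those of mammary epithelium summed to 2.26 to 12.2 FPKM over 7 genes. Replicates 1 and 2 of both groups lay apart from replicates 3 to 5 on the first principal component, which held 36.4% of the variance, and 8 liver markers summed to 22.05 to 31.1 FPKM in the former and 82.9 to 194 FPKM in the latter.

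Glycolysis splits glucose into pyruvate in the cytosol. Glucose enters through GLUT transporters, hexokinase traps it as glucose-6-phosphate, phosphofructokinase commits it to the pathway, and the enzymes from aldolase to pyruvate kinase carry the carbon to pyruvate. Pyruvate is then reduced to lactate and exported, or carried into mitochondria for pyruvate dehydrogenase, which the PDK kinases switch off. Lymphocytes raise this pathway when they are activated and divide. 2DG is a glucose analogue that hexokinase phosphorylates but the next enzyme cannot use, so it acts on enzymes, not directly on the mRNAs counted here. Values were FPKM, fragments scaled to transcript length and to the mapped fragments of the library, which allows levels to be compared between genes.

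The files held many near-identical copies of glycolysis genes, and for some genes most of the signal sat on the copies. A processed pseudogene is an mRNA that was copied back into the genome without introns. Coding bases 257 to 346 of Gapdh (chromosome 6 in GRCm38; glyceraldehyde-3-phosphate dehydrogenase) are shown beside those of its pseudogene copy Gm13394 (chromosome 2), because their only difference in 999 coding bases, marked in capitals (A346C, gene base first, counted from the A of the start codon), lies in this stretch. The next pair is Eno1 (chromosome 4; enolase) beside its pseudogene copy Gm4735 (chromosome 2), at coding bases 1144 to 1233, with T1224C and C1233T in capitals out of 5 differences in 1302 coding bases. The last pair is Tpi1 (chromosome 6; triosephosphate isomerase) beside the pseudogene Tpi-rs11 on the same chromosome, at coding bases 589 to 678, shown because this copy is shorter and differs more: A601G, C603T, G604A, G652T and G666A are in capitals, out of 7 differences in 309 aligned coding bases.
Gapdh: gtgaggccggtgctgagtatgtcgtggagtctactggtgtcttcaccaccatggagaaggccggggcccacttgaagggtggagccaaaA
Gm13394: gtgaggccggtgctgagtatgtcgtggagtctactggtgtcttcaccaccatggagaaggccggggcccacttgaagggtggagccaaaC
Eno1: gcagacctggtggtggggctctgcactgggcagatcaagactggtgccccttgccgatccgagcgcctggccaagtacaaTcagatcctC
Gm4735: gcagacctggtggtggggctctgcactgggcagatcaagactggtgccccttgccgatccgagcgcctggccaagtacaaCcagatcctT
Tpi1: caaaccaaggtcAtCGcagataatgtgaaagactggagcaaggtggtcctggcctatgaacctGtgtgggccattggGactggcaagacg
Tpi-rs11: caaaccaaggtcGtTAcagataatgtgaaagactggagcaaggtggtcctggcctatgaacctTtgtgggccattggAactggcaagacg

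The row of Gapdh held 8.24 FPKM on average over the 10 libraries, whereas its 75 copies with a row, all at 95% identity or more, summed to 1118 FPKM. Gm13394 alone stood at 397 FPKM and the copy Gm5559 at 103 FPKM. The row of Gapdh therefore carried between 0.631% and 0.809% of the signal of the gene and its copies, in every library. By its own row Gapdh had rank 22 in level among the 40 genes, and with its copies it had rank 1. Of all stretches of 150 bases, the read length, in the Gapdh transcript, 74.0% occurred exactly in the transcript of another gene. Reads of the gene and of its copies cannot be told apart in such stretches, so the level of Gapdh is uncertain.

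Eno1 and Mpc1 were also divided between the gene and its copies. Eno1 held 56.6 FPKM and its 3 copies 173 FPKM, of which Gm4735 had 95.8 and Eno1b, annotated as protein-coding, had 75.7; the row of Eno1 carried between 23.9% and 25.5% of the sum. Mpc1, a subunit of the mitochondrial pyruvate carrier, held 9.96 FPKM against 30.3 for Mpc1-ps, a share of 20.99% to 32.8%. Other genes kept most of their signal: the own row held 88.2% to 90.3% for Pgam1, 92.6% to 96.6% for Tpi1, 93.9% to 95.6% for Pgk1 and 95.9% to 96.7% for Pkm. The share of 150-base stretches found exactly in another gene was 66.1% for Pgk1, 49.0% for Eno1, 37.9% for Pgam1, 13.8% for Mpc1, 2.89% for Pkm and 0% for Tpi1, so the division of reads between Pgk1 or Pgam1 and their copies also depends on how shared reads were assigned. In all, 12 of the 40 genes had a copy with a row and 7 had a copy of at least 1 FPKM. Each copy is scaled to its own length, so these sums are approximate.

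**Figure D1:**
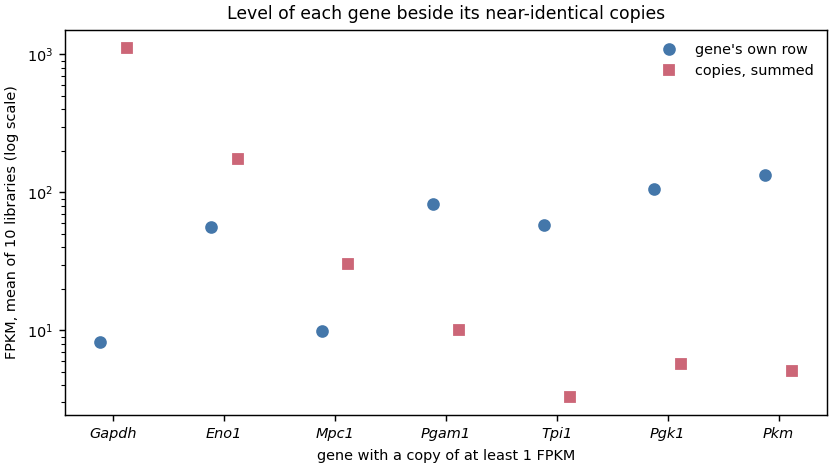
The mean FPKM over 10 libraries, on a log scale, is plotted for the 7 genes with a copy of at least 1 FPKM, as the gene's own row (circles) and the sum of its copies (squares). The copies stand above the gene for Gapdh (1118 against 8.24), Eno1 (173 against 56.6) and Mpc1 (30.3 against 9.96), and below it for the other 4.

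The later steps of glycolysis and lactate dehydrogenase dominated the pathway. By their own rows, without copies, the level of 4 genes was above 100 FPKM, Ldha (169), Aldoa (150), Pkm (133) and Pgk1 (105), and the 6 largest made up 65.6% of the summed level of the 40 genes. Of the 40, 16 reached 10 FPKM and 3 stayed under 1 FPKM: Pfkfb1 at 0.745, Slc16a3 at 0.910 and Slc16a7 at 0.368. These 3 were below the filter of a mean of 1 FPKM and were not tested, which left 37 genes tested among 13334. With copies added, Gapdh (1126) and Eno1 (230) also passed 100 FPKM. The own rows of the 40 genes together held 1042 to 1279 FPKM in the MWA group and 976 to 1065 in the MWA+2DG group.

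A single listed gene led nearly every step in both groups. Of 12 steps with several listed genes, 11 had the same leading gene in all 10 libraries. Some of these steps join partner subunits (Mpc1 with Mpc2, Pdha1 with Pdhb) or different enzymes (Pgam1 with Bpgm), not isozymes. Slc2a1 (GLUT1, the widely expressed glucose transporter) held 59.5% of the uptake genes, Hk1 73.3% of the hexokinases, Pfkl (the liver-type phosphofructokinase) 49.7% against 37.1% for the platelet-type Pfkp, and Pfkfb3, which makes the phosphofructokinase activator fructose-2,6-bisphosphate, 77.6% of its family. Aldoa held 99.2% of the aldolases and Pgam1 94.3% of its step with Bpgm. Ldha, the muscle-type subunit that favours lactate, held 95.2% of lactate dehydrogenase, and Slc16a1 (MCT1, a lactate transporter) 86.5% of its step. Pdk3 held 67.2% of the pyruvate dehydrogenase kinases. Eno1 held 69.3% of the enolases by its own row, with Eno3, known from muscle, second at 26.3%. Mpc1 held 77.6% of the summed FPKM of the carrier's subunits. The shares of Eno1 and Mpc1 leave out the copies above. Pdha1 and Pdhb, the subunits of the E1 enzyme of pyruvate dehydrogenase, were almost level at 52.7% and 47.3%, and Pdhb was the larger in 1 library, MWA replicate 5.

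The shares of the genes within each step overlapped between the groups. The largest apparent shift was in the lactate transporters, where Slc16a1 held 78.7% to 86.4% in the MWA group and 86.2% to 90.7% in the MWA+2DG group. These ranges meet, and the share depends on Slc16a3 (MCT4), which was under the filter and ran from 0.675 to 1.60 FPKM in MWA and from 0.522 to 1.08 in MWA+2DG. The share of Slc2a3 (GLUT3) among the uptake genes ran from 12.3% to 22.4% in MWA and from 15.9% to 27.2% in MWA+2DG, again with overlap. No test was made of shares.

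**Figure D2:**
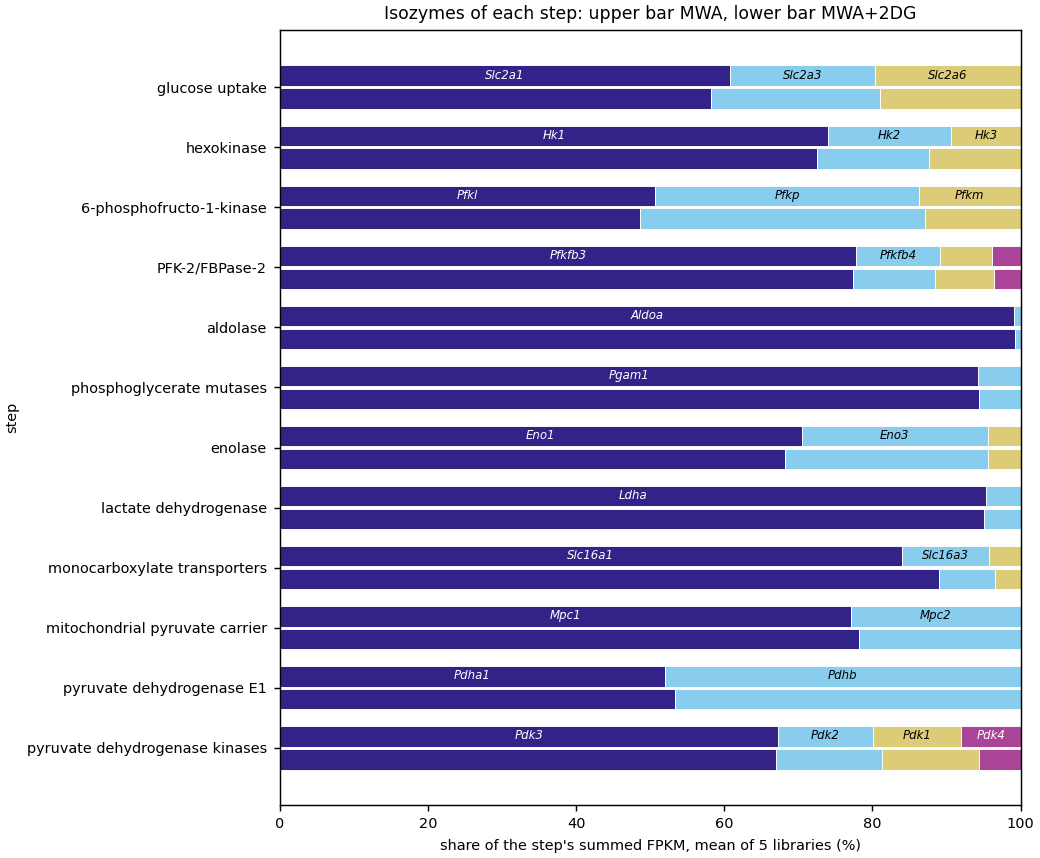
Each bar divides the summed FPKM of a step among its genes, in percent and as the mean of 5 libraries, with MWA above and MWA+2DG below; segments under 7% have no name. The leading gene is the same in both bars of every step, from 49.7% (Pfkl) to 99.2% (Aldoa) over all 10 libraries.

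The comparison of the groups asked whether glycolysis inhibition after ablation went with a different mRNA level of the pathway in the node. Among the 37 genes tested, 1 was lower in MWA+2DG by the study's rule (unadjusted limma P below 0.05 and a log2 fold change beyond 0.25), Tpi1, and 0 were higher. Over all genes tested the rule called 1.87% lower and 0.952% higher. An unadjusted P below 0.05 was found for 1 of the 37 genes, against 4.25% of all genes. After Benjamini-Hochberg adjustment in limma 0 of the 37 genes, and 0.0% of all genes, were below 0.05, and the smallest adjusted P was 0.995. The groups did not overlap for 2 of the 37 genes, Tpi1 and Pgam1, against 0.802% of all genes. The median log2 fold change of the 37 genes was -0.01 and that of all genes was 0.01, with 24 of the 37 genes (64.9%) negative against 47.4% of all genes. Rescaling each library to the same total left 15 negative, with a median of 0.05 for the 37 genes and of 0.07 for all genes.

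**Figure D3:**
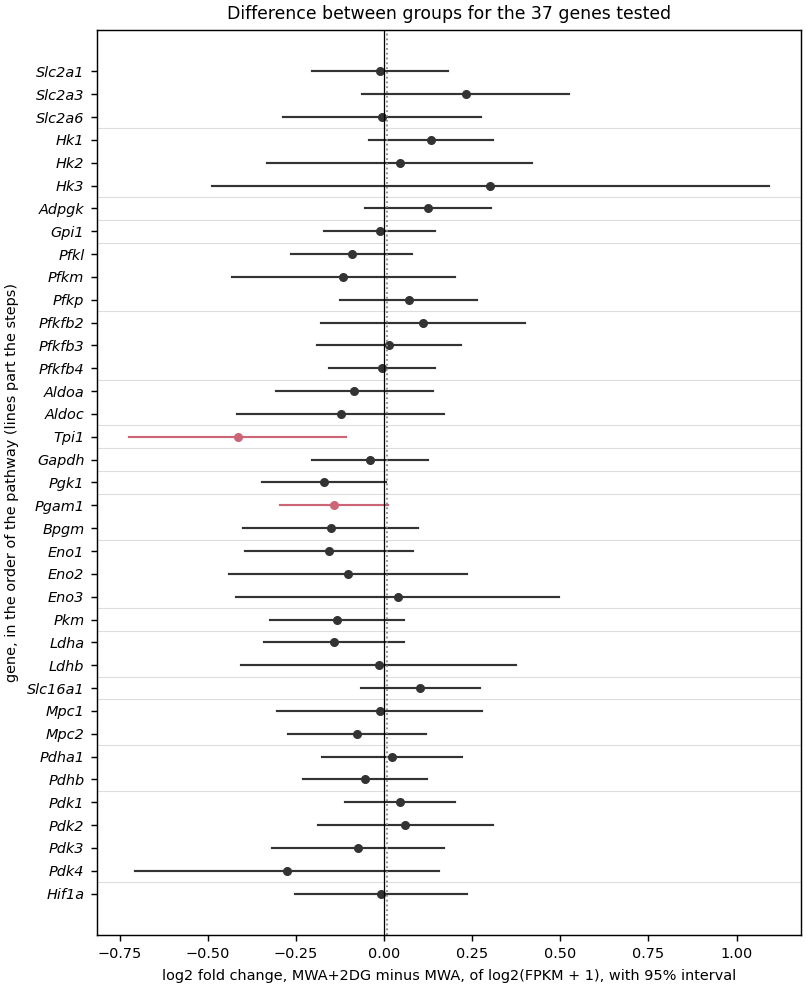
The log2 fold change of each of the 37 tested genes (MWA+2DG minus MWA, on log2 of FPKM + 1) is drawn with its 95% interval in the order of the pathway; the dotted line is the median of all genes, and genes whose groups did not overlap are in red. Of all 37 intervals only that of Tpi1 (-0.72 to -0.11) lies clear of 0.

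Tpi1 showed the clearest difference between groups. This enzyme interconverts the pair of triose phosphates that aldolase releases, so that both can go on through glycolysis. In MWA replicates 1 to 5 its level was 58.9, 55.3, 59.9, 65.3 and 96.2 FPKM, and in MWA+2DG replicates 1 to 5 it was 44.3, 53.5, 47.8, 53.5 and 46.6 FPKM. All 5 MWA+2DG libraries were below all 5 MWA libraries, and MWA replicate 5 stood far above the rest. The mean was 67.1 ± 16.6 (SD, n = 5) against 49.1 ± 4.16 FPKM, a log2 fold change of -0.42 (SE 0.14). The limma P was 0.0128 and the adjusted P 0.995. The exact permutation test over 252 regroupings gave P = 0.00794, the smallest it can give (two-sided). Groups without overlap always give this value, so it restates the lack of overlap. Without MWA replicate 5 the log2 fold change was -0.28, still past the study's rule, and the groups still did not overlap. Within replicates 1 and 2 Tpi1 differed by -0.22 and within replicates 3 to 5 by -0.54 on the log2 scale. With the Tpi-rs11 copy added, the groups ran from 57.2 to 100.8 and from 47.9 to 55.9 FPKM. Scaling by median ratios gave -0.42 but let the groups overlap.

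Pgam1, which moves the phosphate of 3-phosphoglycerate to carbon 2, differed less but also without overlap. Its level was 84.9, 84.5, 84.7, 84.6 and 96.4 FPKM in MWA replicates 1 to 5 and 79.2, 83.0, 76.2, 83.3 and 72.2 FPKM in MWA+2DG replicates 1 to 5. The gap between the lowest MWA and the highest MWA+2DG library was narrow. Within replicates 1 and 2 the log2 difference was -0.06 and within replicates 3 to 5 -0.19. Over all libraries it was -0.14 (SE 0.07, 95% interval -0.29 to 0.01) with a limma P of 0.0655. The exact permutation P was 0.00794, the value that groups without overlap always give. Without MWA replicate 5 it was -0.11, without overlap. The groups overlapped once each library was rescaled to the same total, where the log2 fold change was -0.08, and after scaling by median ratios. The copy Pgam1-ps2, identical to Pgam1 over its 765 bases, was at 10.9 ± 0.698 and 9.28 ± 0.760 FPKM (SD, n = 5 each), a log2 fold change of -0.21 (SE 0.07), with an exact permutation P of 0.0159 and a limma adjusted P of 0.995. The gene and this copy are not independent readings of reads from the shared stretch.

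Markers of cell types were also compared between the groups. Over all genes tested, 4.25% had an unadjusted limma P below 0.05. The summed FPKM of 10 macrophage and monocyte markers ran from 1643 to 2538 in MWA, with MWA replicate 5 the highest. In MWA+2DG it ran from 1154 to 1709. Of the 10, 9 were lower and 2, Lyz2 and Csf1r, had an unadjusted limma P below 0.05. Lyz2 alone made up most of these sums. It averaged 1690 ± 349 FPKM in MWA and 1218 ± 211 in MWA+2DG (SD, n = 5 each), against mean sums of 1923 and 1429. The summed FPKM of 10 genes of dividing cells ran from 164 to 220 in MWA and from 114 to 185 in MWA+2DG. Of these genes 10 of 10 were lower and 6 were below that P (Cdk1, Ccnb1, Ccnb2, Ccna2, Birc5 and Bub1). Cdk1 had groups without overlap, as had 0.802% of all genes tested. Its log2 fold change was -0.38, with a limma P of 0.00131 and an adjusted P of 0.995. MWA replicate 4 had the highest sum (220), against 187 in MWA replicate 5. Of 7 plasma cell markers 6 were tested and all 6 were lower, 2 with an unadjusted limma P below 0.05 (Xbp1 and Mzb1). Their sums in MWA replicates 1 to 5 were 308, 319, 728, 697 and 818 FPKM. In MWA+2DG replicates 1 to 5 they were 498, 256, 229, 461 and 257 FPKM, so the groups were mixed within replicates 1 and 2. The summed FPKM of 10 neutrophil markers ran from 23.1 to 102 in MWA and from 11.5 to 25.1 in MWA+2DG. The value of 102 was MWA replicate 1 alone. The other MWA libraries ran from 23.1 to 28.1, a range that held MWA+2DG replicate 5 (25.1). The 5 markers tested were all lower, 2 below that P (S100a8 and S100a9). T cell markers were higher in 10 of 10 genes, 3 of them below that P (Cd4, Cd8a and Tcf7), with sums of 483 to 696 and 505 to 710 FPKM. B cell markers were lower in 9 of 9 genes and erythroid markers in 4 of 4 tested, and adipocyte markers were higher in 4 of 4 tested, with no gene below that P; the adipocyte sums ran from 4.53 to 18.1 FPKM in MWA and from 5.06 to 93.9 FPKM in MWA+2DG, where replicate 5 was the highest. Dendritic cell markers were higher in 6 of 8 genes, with none below that P. Stromal and endothelial markers were lower in 7 of 10 genes and liver markers in 7 of 8, again with none below that P. Of 8 skeletal muscle markers 2 were tested, 1 higher and 1 lower, with none below that P. The sums of the 8 ran from 8.76 to 10.4 FPKM in MWA and from 7.68 to 10.3 FPKM in MWA+2DG. Mylpf made up most of them, with means of 5.79 and 5.83 FPKM, whereas Acta1 averaged 0.048 and 0.014 FPKM and Ckm 0.130 and 0.092 FPKM. No marker of these lists was at 0 in every library. Their part in the differences of Tpi1 and Pgam1 was not tested.

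The other leading enzymes of the later steps had negative log2 fold changes whose intervals reached 0. Pgk1, the first of the enzymes that make ATP, was 118, 104, 98.1, 111 and 127 FPKM in MWA and 99.3, 102, 97.2, 102 and 92.3 FPKM in MWA+2DG. The groups overlapped at the lowest MWA library, with a log2 fold change of -0.17 (SE 0.08, 95% interval -0.35 to 0.00), a limma P of 0.0547 and an exact permutation P of 0.0397. Aldoa, which cleaves fructose-1,6-bisphosphate, was 152, 138, 147, 150 and 186 FPKM in MWA and 122, 146, 144, 152 and 165 FPKM in MWA+2DG, with a log2 fold change of -0.08 (95% interval -0.31 to 0.14).

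Eno1, which forms phosphoenolpyruvate, was 56.2, 51.9, 59.4, 55.8 and 75.9 FPKM in MWA and 47.1, 51.6, 53.7, 61.2 and 52.7 FPKM in MWA+2DG. The groups overlapped (log2 fold change -0.16, 95% interval -0.40 to 0.08), and with the copies summed they ran from 207 to 310 and from 193 to 252 FPKM. Gapdh was 7.82, 8.67, 8.14, 7.95 and 9.23 FPKM in MWA and 7.08, 8.63, 8.42, 8.60 and 7.83 FPKM in MWA+2DG, a log2 fold change of -0.04 (95% interval -0.20 to 0.12). With its copies it ran from 1099 to 1464 in MWA and from 960 to 1168 FPKM in MWA+2DG, which overlap, and the log2 fold change was -0.17.

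Pkm, the pyruvate kinase that makes pyruvate and ATP, was 136, 127, 133, 134 and 167 FPKM in MWA and 115, 126, 122, 136 and 132 FPKM in MWA+2DG. Here 3 of 5 MWA+2DG libraries lay below all MWA libraries, with a log2 fold change of -0.13 (SE 0.09, 95% interval -0.33 to 0.06). Ldha, which reduces pyruvate to lactate, was 186, 163, 160, 164 and 217 FPKM in MWA and 158, 164, 157, 167 and 153 FPKM in MWA+2DG. Its pattern was like that of Pkm, with 3 of 5 libraries below all MWA libraries and a log2 fold change of -0.14 (SE 0.09, 95% interval -0.34 to 0.06).

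MWA replicate 5 was the highest library for each of the 8 genes that averaged 50 FPKM or more (Gpi1, Aldoa, Tpi1, Pgk1, Pgam1, Eno1, Pkm and Ldha), a limit chosen after the values were seen. All 8 were negative, with a median log2 fold change of -0.14, except that Gpi1 turned positive after rescaling to the same total, without MWA replicate 5 and without MWA+2DG replicate 1, and Gpi1 and Aldoa after quantile normalization. Among all genes of at least 50 FPKM on average, 639 of 963 were negative, with a median of -0.04. Without MWA replicate 5 the log2 fold change was 0.02 for Gpi1, -0.02 for Aldoa, -0.12 for Pgk1 and -0.07 for each of Eno1, Pkm and Ldha. That library also had the largest summed FPKM over all genes, 359984 against 312143 to 335701 in the other 9. Its median-ratio factor, by which values are divided, was however 0.949, the lowest of the MWA group (others 0.979 to 1.053). Scaling by median ratios therefore raised its values.

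**Figure D4:**
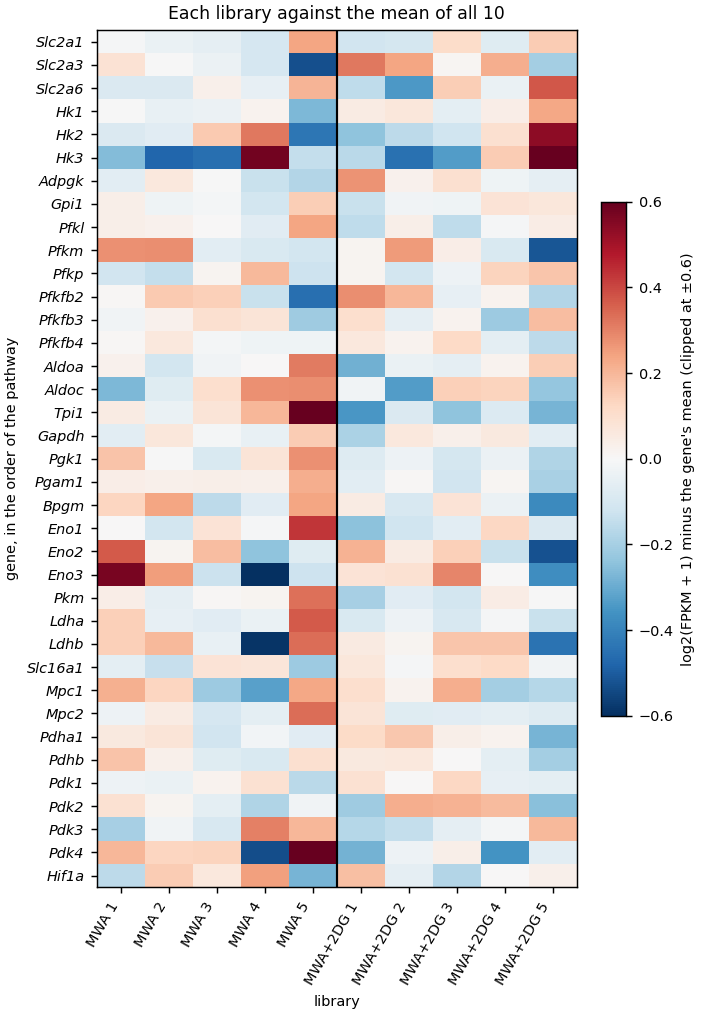
Each cell is the log2(FPKM + 1) of a gene in a library minus that gene's mean over the 10 libraries, clipped at 0.6 in either direction, with genes in pathway order and a line between MWA (left) and MWA+2DG (right). MWA replicate 5 was the highest library for 16 of the 37 genes and MWA+2DG replicate 5 the lowest for 10 of them.

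None of the genes of the first steps passed the unadjusted limma threshold with all libraries. Slc2a1 was 14.4, 14.1, 13.9, 13.4 and 17.2 FPKM in MWA and 13.3, 13.4, 15.7, 13.7 and 16.2 FPKM in MWA+2DG. The groups were mixed, with a log2 fold change of -0.01 (95% interval -0.21 to 0.18). Slc2a3, the high-affinity transporter GLUT3, was 5.42, 5.03, 4.89, 4.64 and 3.19 FPKM in MWA and 6.51, 6.11, 5.09, 6.02 and 4.25 FPKM in MWA+2DG. Of the MWA+2DG libraries 3 of 5 were above all MWA libraries, with a log2 fold change of 0.23 (SE 0.13, 95% interval -0.06 to 0.53, exact permutation P = 0.143). It was 0.13 without MWA replicate 5 and 0.31 without MWA+2DG replicate 5, where it passed the study's rule. Slc2a6 averaged 4.74 FPKM with a log2 fold change of -0.01.

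Hk1, the hexokinase of most tissues, was 9.82, 9.48, 9.56, 9.99 and 7.98 FPKM in MWA and 10.2, 10.3, 9.39, 10.1 and 11.7 FPKM in MWA+2DG. Of the MWA+2DG libraries 4 of 5 lay above all MWA libraries, with a log2 fold change of 0.13 (SE 0.08, 95% interval -0.04 to 0.31). Hk3, the hexokinase known from myeloid cells, was 0.989, 0.713, 0.743, 2.56 and 1.16 FPKM in MWA and 1.13, 0.747, 0.887, 1.65 and 5.96 FPKM in MWA+2DG. The log2 fold change of 0.30 (95% interval -0.49 to 1.09) was -0.05 without MWA+2DG replicate 5, the library with the value of 5.96. Hk2, the inducible hexokinase, averaged 2.20 FPKM with a log2 fold change of 0.04. Adpgk, a glucokinase that uses ADP, was 7.17, 7.94, 7.54, 6.79 and 6.58 FPKM in MWA and 9.29, 7.70, 8.15, 7.40 and 7.24 FPKM in MWA+2DG, with overlap and a log2 fold change of 0.12 (95% interval -0.05 to 0.30).

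**Figure D5:**
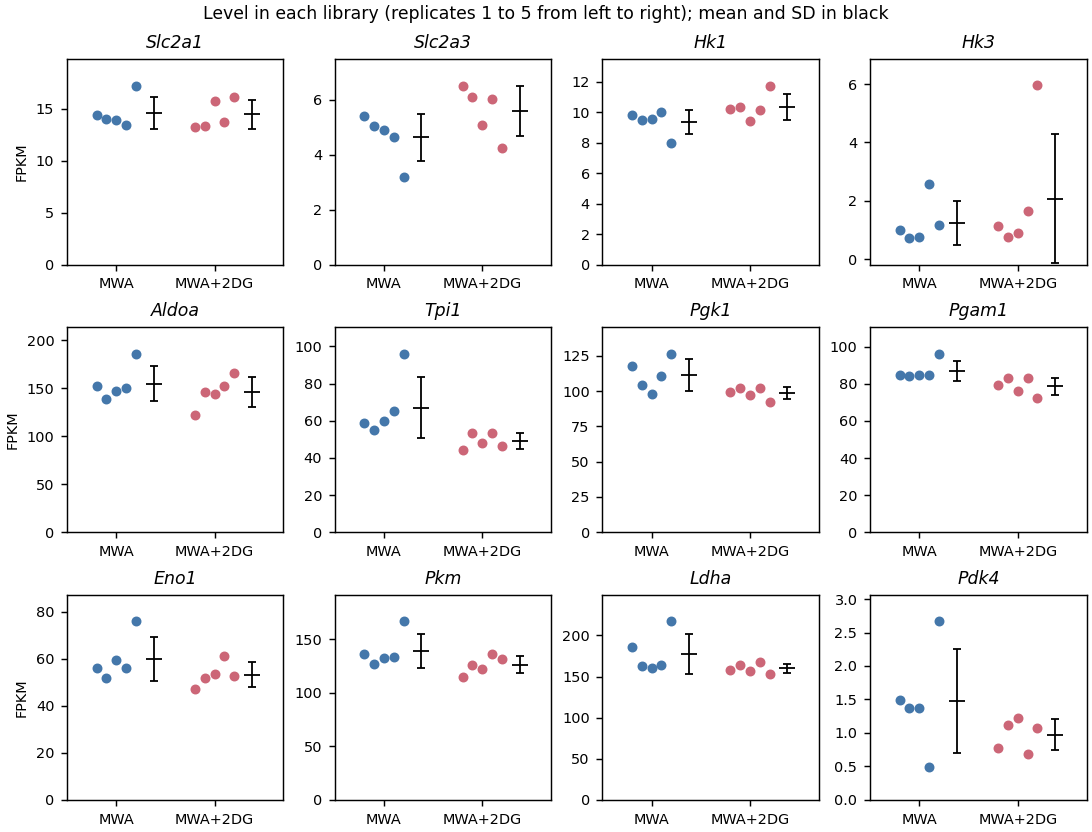
FPKM in each library is drawn for 12 genes, with MWA in blue and MWA+2DG in red, replicates 1 to 5 from left to right, and the mean and SD in black. The groups are apart for Tpi1 and Pgam1 and overlap for the other 10; MWA replicate 5 is the highest blue point for Tpi1 (96.2) and Ldha (217), and the highest Hk3 value (5.96) is MWA+2DG replicate 5.

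Gpi1, which turns glucose-6-phosphate into fructose-6-phosphate, was 58.3, 55.8, 56.4, 52.5 and 63.1 FPKM in MWA and 51.7, 56.0, 55.8, 60.3 and 59.6 FPKM in MWA+2DG. The libraries were mixed, with a log2 fold change of -0.01 and a narrow 95% interval of -0.17 to 0.15. Pfkl was 13.3, 13.2, 12.97, 12.3 and 15.4 FPKM in MWA and 11.5, 13.3, 11.6, 12.9 and 13.4 FPKM in MWA+2DG, with overlap and a log2 fold change of -0.09 (95% interval -0.26 to 0.08). The other phosphofructokinases averaged 9.68 FPKM for Pfkp and 3.47 FPKM for Pfkm, the muscle type, with log2 fold changes of 0.07 and -0.12.

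Pfkfb3 was 15.2, 15.8, 16.6, 16.4 and 13.2 FPKM in MWA and 16.6, 14.8, 15.7, 13.1 and 17.7 FPKM in MWA+2DG. There was no separation, with a log2 fold change of 0.01 (95% interval -0.19 to 0.22). Its relatives Pfkfb2 and Pfkfb4 averaged 1.49 and 2.22 FPKM, with log2 fold changes of 0.11 and 0.00. The minor genes of the later steps, Aldoc, Bpgm, Eno2, Eno3 and Ldhb, averaged 1.22, 5.02, 3.63, 21.5 and 8.57 FPKM. Their log2 fold changes lay between -0.15 (Bpgm) and 0.04 (Eno3), and all groups overlapped. Bpgm makes the 2,3-bisphosphoglycerate that red cells use.

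None of the genes that decide the fate of pyruvate passed the test, and their groups overlapped. Slc16a1 was 7.85, 7.38, 8.76, 8.69 and 6.93 FPKM in MWA and 8.66, 8.16, 8.89, 8.996 and 8.08 FPKM in MWA+2DG, with 2 of 5 libraries above all MWA libraries and a log2 fold change of 0.10 (95% interval -0.07 to 0.27). Mpc1 was 11.6, 10.9, 8.34, 7.67 and 11.7 FPKM in MWA and 10.6, 10.03, 11.6, 8.44 and 8.64 FPKM in MWA+2DG, a log2 fold change of -0.01 (95% interval -0.30 to 0.28). With Mpc1-ps added it was 0.05. Its partner Mpc2 averaged 2.85 FPKM with a log2 fold change of -0.08.

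Pdha1, the alpha subunit of pyruvate dehydrogenase E1, was 27.1, 27.5, 23.9, 25.7 and 24.8 FPKM in MWA and 28.2, 29.2, 26.7, 26.4 and 21.2 FPKM in MWA+2DG, a log2 fold change of 0.02 (95% interval -0.18 to 0.22). The beta subunit Pdhb averaged 23.4 FPKM with a log2 fold change of -0.06. Pdk3 was 10.2, 11.7, 11.1, 14.9 and 13.8 FPKM in MWA and 10.5, 10.7, 11.4, 11.8 and 13.7 FPKM in MWA+2DG, with full overlap and a log2 fold change of -0.07 (95% interval -0.32 to 0.17). Pdk4, the kinase known to be induced by fasting, was 1.49, 1.37, 1.38, 0.495 and 2.67 FPKM in MWA and 0.781, 1.12, 1.22, 0.690 and 1.07 FPKM in MWA+2DG. The MWA+2DG libraries all fell inside the MWA range, with a log2 fold change of -0.28 (SE 0.20, 95% interval -0.71 to 0.15). It was -0.44 and passed the study's rule without MWA replicate 4, the library of 0.495. Pdk1 and Pdk2 averaged 2.20 and 2.39 FPKM, with log2 fold changes of 0.04 and 0.06.

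Hif1a, the oxygen-sensitive transcription factor that raises many glycolysis genes, was 20.9, 26.1, 24.5, 27.96 and 19.1 FPKM in MWA and 26.6, 22.5, 20.6, 23.5 and 23.9 FPKM in MWA+2DG. The groups overlapped fully, with a log2 fold change of -0.01 (95% interval -0.25 to 0.24). Of 21 regulators and textbook targets of HIF-1, 19 were tested. Of these, 0 had an unadjusted limma P below 0.05, against 4.25% of all genes tested, and their median log2 fold change was 0.00. The 3 of smallest P were Bnip3, Ankrd37 and Mxi1, with log2 fold changes of -0.15, -0.30 and 0.12 and exact permutation P-values of 0.0952, 0.167 and 0.238.

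Further genes of the pathway were read from a list of 46, of which 45 had a row and 30 were tested. Of the 30, 2 were higher at an unadjusted limma P below 0.05 and 0 were lower. Over all genes tested, 4.25% had such a P and 0.802% had groups without overlap. The median log2 fold change of the 30 was -0.02, and neither of the 2 passed adjustment (limma adjusted P = 0.995). Slc2a9, a GLUT family member known as a urate transporter, was 3.29, 2.77, 2.50, 2.81 and 2.40 FPKM in MWA and 3.62, 3.49, 3.65, 3.33 and 3.32 FPKM in MWA+2DG, without overlap. Its log2 fold change was 0.26 (SE 0.07, exact permutation P = 0.00794, the smallest possible). Emb (embigin), a chaperone that brings lactate transporters to the cell surface, averaged 10.2 ± 0.347 FPKM in MWA and 12.4 ± 1.82 in MWA+2DG (SD, n = 5 each), without overlap, and had a log2 fold change of 0.25 (SE 0.09, exact permutation P = 0.00794).

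The promoters of the genes were searched for the core letters of the HIF element, ACGTG and GCGTG on both strands, and for the E-box CACGTG, which contains ACGTG, in the 250 bases before and 50 after each start site listed by RefSeq (GRCm38.p6). The table held 58 promoters of 38 of the 40 genes. ACGTG occurred in 43.1% of these promoters and in 19.6% of all 32851 promoters, GCGTG in 55.2% and 32.4%, and CACGTG in 12.1% and 7.15%. The base composition of the promoters was not matched, and a match of these letters is not a binding site. The 250 bases before the start are shown for Pgam1 (chr19:41911621-41911870, plus strand), which had groups without overlap, and for the upstream start of Ldha (chr7:46845554-46845803, plus strand), the gene of highest level by its own row, with ACGTG and GCGTG in capitals on either strand. Pgam1 held ACGTG at 1 place and GCGTG at 2, and Ldha held ACGTG at 5 counting both strands, of which 4 made up 2 E-boxes. The other listed start of Ldha (chr7:46846832-46847081 before the start, plus strand) held ACGTG and CACGTG at 0 places and GCGTG at 1. In Tpi1 none of these letters occurred in the 250 bases before its start, but 138 of these bases lay in annotated exons. That number was 0 for Pgam1 and for both starts of Ldha.
Pgam1: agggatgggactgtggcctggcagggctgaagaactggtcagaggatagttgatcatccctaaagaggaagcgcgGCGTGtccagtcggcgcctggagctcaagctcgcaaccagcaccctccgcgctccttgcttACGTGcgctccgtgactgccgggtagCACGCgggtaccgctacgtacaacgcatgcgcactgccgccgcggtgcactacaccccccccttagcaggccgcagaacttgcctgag
Ldha: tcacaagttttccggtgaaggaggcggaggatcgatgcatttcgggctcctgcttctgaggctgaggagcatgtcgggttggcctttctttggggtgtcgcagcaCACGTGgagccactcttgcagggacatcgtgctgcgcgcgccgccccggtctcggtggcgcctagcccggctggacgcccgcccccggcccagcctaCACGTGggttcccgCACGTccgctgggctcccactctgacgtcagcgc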

How the data were processed

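Whole TDLNs gave 10 libraries, 5 per group, grouped by the labels; poly(A) RNA was sequenced in pairs of 150 bases. The deposited values were FPKM per gene, made by the authors with HISAT2 (version 2.0.4) and StringTie (version 1.3.4d). The submitters' processing notes name these with cutadapt (version 1.9), UMI-tools and the build mm9. The paper instead names fastp for quality control and ballgown beside StringTie, and gives no build. Which of these applied, and whether mm9 was the build behind the identifiers, was not settled here. How reads matching several places were assigned: not given in the sources used here. FPKM holds no read number, so the depth of each library is unknown and no counting interval is given; total FPKM per library was 312143 to 359984. Rows of 33643 Ensembl identifiers were matched to symbols (33541 matched) and rows of a symbol were summed.

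Values were tested as log2(FPKM + 1), which understates changes of low genes, with limma (version 3.58.1, R version 4.3.3) on the 13334 genes that averaged 1 FPKM or more; P-values were adjusted by Benjamini-Hochberg over these genes. The script was first tested on simulated data. Copies were found with BLAST (version 2.17.0) of each gene's longest coding transcript against GENCODE M21 transcripts: at least 95% identity over 200 bases and 50% of the copy. Single genes were also tested by exact permutation of the 10 libraries (two-sided). Values in every library are given for the leading gene of each step, genes with an unadjusted P below 0.05 or groups without overlap, and the 5 tested genes of largest change; Slc16a3 was not tested. The genes and lists were chosen with earlier results of these data known. Alternatives were another pseudocount, other filters and scalings, limma-trend, the Wilcoxon rank-sum test, a replicate block, a term for replicates 1 and 2 against 3 to 5, each library left out in turn, and, chosen after seeing the data, genes summed with their copies.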

Additional observations from a re-analysis of the deposited data

Results flagged for a closer look

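In 80 groups of 5 libraries (40 genes in both groups), 10 held a library whose gap to the next, over the group's range, passed Dixon's 95% limit of 0.71; chance flags about 1 in 20 groups. MWA replicate 5 was such a library for 5 genes, high for Tpi1 (96.2 FPKM, others 55.3 to 65.3), Pgam1 (96.4, others 84.5 to 84.9), Pkm (166.6, others 127 to 135.7) and Slc2a1 (17.2, others 13.4 to 14.4) and low for Hk1 (7.98, others 9.48 to 9.99). Its summed macrophage and monocyte markers were also the highest of the 10 libraries, at 2538 FPKM, of which Lyz2 held 2244. The same held for its sums of plasma cell markers (818 FPKM) and skeletal muscle markers (10.4 FPKM). MWA+2DG replicate 5 was such a library for 3 genes, high for Hk3 (5.96 FPKM, others 0.747 to 1.65) and Slc16a3 (1.08, others 0.522 to 0.682) and low for Ldhb (5.92, others 8.51 to 9.57). Hk3 was also high in MWA replicate 4 (2.56 FPKM, others 0.713 to 1.16), and Mpc2 was high in MWA+2DG replicate 1 (3.05 FPKM, others 2.64 to 2.69).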

How the results depend on the processing

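Tpi1 stayed lower at an unadjusted P below 0.05 under all 21 alternatives (log2 fold change -0.48 to -0.28), and no gene of the 37 passed an adjusted P of 0.05 in any. The count higher by the study's rule was 0 to 1 and the count lower 1 to 2 with a library left out. Genes without overlap fell from 2 to 1 after rescaling to the same total (Tpi1 remained) and to 0 after median ratio scaling. The genes' median became 0.0485 after rescaling. Other pathway genes past the unadjusted threshold numbered 4 without a filter, 1 with a filter of 5 FPKM and 4 with a replicate block, against 2. The labels do not say what a shared number stands for; same-numbered libraries deviated together with correlations of 0.033 (replicate 4) to 0.50, not all over 0.1, and not every library correlated best with its own number, so the numbers were not taken as pairs; with the replicate block the log2 fold changes of Tpi1 (-0.42) and Slc2a3 (0.23) both passed the unadjusted limma threshold. Of 22 genes given in every library, 13 kept their sign and 9 did not. After rescaling Slc2a1, Gpi1, Gapdh, Mpc1 and Hif1a became 0.0503, 0.0503, 0.0184, 0.0494 and 0.0545; after quantile normalization Gpi1, Aldoa and Hif1a became 0.0564, 0.0092 and 0.0017; with copies summed Mpc1 became 0.0492. With a library left out, Slc2a1 ran from -0.0511 to 0.0454, Hk3 from -0.0474 to 0.484, Gpi1 from -0.0428 to 0.0221, Pfkfb3 from -0.0384 to 0.0698, Gapdh from -0.0611 to 0.0026, Pdha1 from -0.0152 to 0.0952, Mpc1 from -0.0955 to 0.0432 and Hif1a from -0.0798 to 0.052. The cause of these changes was not tested. The number of libraries, 5 a group, limits precision.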
